A study of Homo sapiens with 8 samples.

Results

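The 52 genes described here encode the proteins that mark, license and fire the origins of DNA replication and that work at the moving replication fork. They were taken by gene symbol from the 63967 gene labels of the expression table, and no measured value entered the rule. The list was, however, chosen with earlier results of these data known. All 52 were found, and all 52 passed the filter on low values, which required at least 1 FPKM (reads per kilobase of gene, scaled to the total of the library) in at least 2 of the 8 libraries and left 10710 genes for testing.

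RNA-seq was done on Raji, a Burkitt lymphoma B cell line that is sensitive to the anti-CD20 antibody rituximab, and on Raji-4RH, the resistant line that was raised from it through repeated rituximab treatment. Each line was kept for 24 h with the solvent DMSO or with 3 μM chidamide, an inhibitor of histone deacetylases, which gave 4 groups of 2 libraries: Raji DMSO, Raji chidamide, Raji-4RH DMSO and Raji-4RH chidamide. All cells were at passages 2 to 3 and were collected by flow sorting, with no gate named. The labels do not say whether the 2 libraries of a group came from separate cultures, so the p-values measure the spread between these libraries, which may be technical. The study names more replicates for this experiment than were analysed here. Raji-4RH is 1 derived line, so its resistance cannot be told apart from other differences between the lines.

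The libraries held 13991697 to 21193441 reads over all genes, as recovered from the FPKM values and gene lengths. The fewest were in Raji-4RH chidamide replicate 1. The labels and the values of the table had slipped apart by 1 to 14 rows in the later rows, and 20 of the 52 genes have their values below their label by such a shift. In all 12 segments of the rule that sets this right, no other shift tried did better for genes of known broad or restricted expression. A tie was counted for the rule, and some segments held only 1 or 2 broadly expressed genes. The 2 Raji-4RH chidamide libraries differed most from each other. Their chi-square was 11.8 per degree of freedom over genes, against 1.78 to 4.47 in the other groups. For each gene the fit assumed 1 spread for all 4 groups, so its standard errors and p-values do not reflect this difference. All 8 B cell markers searched were present in both lines. Of 7 T cell markers, only CD3E and CD7 reached 1 FPKM in any library, and the summed level of the 7 was 0.13 to 0.171 FPKM in Raji DMSO, 0.861 to 1.11 in Raji chidamide, 7.84 to 9.48 in Raji-4RH DMSO and 21.8 to 30.7 in Raji-4RH chidamide. Of 5 myeloid markers placed, 4 (LYZ, CSF1R, CD33 and ITGAM) reached 1 FPKM, and the summed level of the 5 was 1.15 FPKM with DMSO and 11.1 to 11.2 with chidamide in Raji, and 1.09 to 1.21 with DMSO and 10.9 to 11.9 with chidamide in Raji-4RH. Of 8 fibroblast and epithelial markers only COL1A1 reached 1 FPKM, with a sum of at most 2.47. These marker levels moved with the treatment and the line, and their part in the results below was not tested.

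Before S phase, the origin recognition complex (ORC) binds DNA, and CDC6 and CDT1 help it to load the ring-shaped MCM2-7 helicase, a step called licensing. In S phase, the kinase CDC7 with its activator DBF4, together with TOPBP1, RECQL4 and MCM10, turns the loaded ring into the active CDC45-MCM-GINS helicase. Polymerase alpha and primase then start each strand, the clamp PCNA, loaded by RFC, holds polymerases delta and epsilon on the template, and FEN1 and LIG1 join the Okazaki fragments. Many of these genes are textbook targets of the E2F transcription factors and are transcribed mainly in dividing cells as they enter S phase.

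With chidamide in Raji-4RH, 51 of the 52 replication genes fell and 1, ORC4, rose (limma, adjusted p under 0.05). Over all genes tested, 31.6% fell and 43.3% rose in this comparison, a balance that turned to 37.9% and 34.7% with quantile normalization, under which 51 of the 52 still fell. A log2 fold change of -1 or lower was reached by 39 of the 52, against 5.05% of all genes tested. The median log2 fold change of the 52 was -1.68, and that of all 10710 genes was 0.09. The values of the 2 chidamide libraries lay outside those of the 2 DMSO libraries in all 52 genes, as they did in 86.5% of all genes tested. With 2 libraries against 2, the smallest two-sided p of an exact permutation test is 0.333, so single genes were judged by the fit across all genes only. In bulk RNA, fewer cells that copy their DNA and less RNA per cell cannot be told apart.

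Measured as a share of all reads, the 52 genes together took 0.81% and 0.813% in the Raji-4RH DMSO libraries and 0.232% and 0.239% in the chidamide libraries. In Raji the share was 0.738% and 0.725% with DMSO and 0.439% and 0.441% with chidamide.

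**Figure D1:**
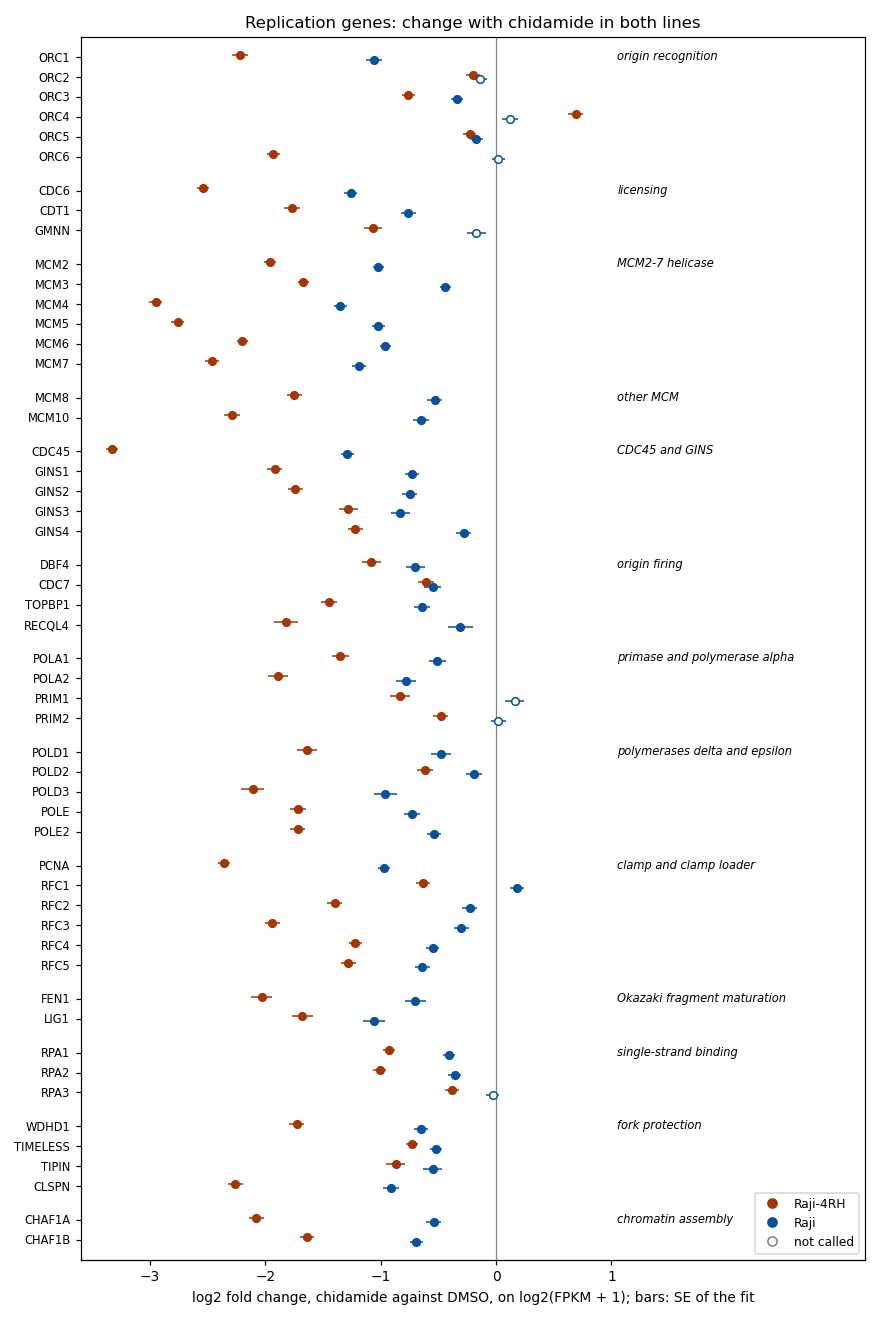
Log2 fold change of each of the 52 replication genes with chidamide against DMSO, on the log2(FPKM + 1) scale, in Raji-4RH (brown) and Raji (blue), grouped by role. Bars are the standard errors of the fit and open points were not called; in Raji-4RH every point except ORC4 lies left of 0, and most Raji points lie between the Raji-4RH point and 0.

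The largest fall was in CDC45, which couples the helicase to the rest of the fork. It had 38.8 and 38.2 FPKM in the Raji-4RH DMSO libraries and 2.86 and 3.00 FPKM in the chidamide libraries, which left 7.61% of the DMSO mean. Its log2 fold change was -3.33 (SE 0.0541, adjusted p = 1.9e-08). By FPKM in Raji-4RH, CDC45 was above all 4 GINS genes under DMSO and below GINS1 and GINS2 under chidamide. Against GINS4 under chidamide, CDC45 was lower in replicate 1 (2.86 against 3.30) and higher in replicate 2 (3.00 against 2.92).

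MCM4, a subunit of the helicase ring, had 76.7 and 76.2 FPKM with DMSO and 8.62 and 9.50 with chidamide, a log2 fold change of -2.95 (SE 0.0556, adjusted p = 2.1e-08). MCM5, another ring subunit, had 47.9 and 49.7 FPKM with DMSO and 6.15 and 6.53 with chidamide, a log2 fold change of -2.76 (SE 0.0547, adjusted p = 2.1e-08). These ring subunits were left at 11.8% and 13% of their DMSO means. CDC6, the ATPase that helps to load the ring, had 21.4 and 20.4 FPKM with DMSO and 2.85 and 2.70 with chidamide, a log2 fold change of -2.54 (SE 0.055, adjusted p = 2.2e-08). MCM7 had the highest FPKM of the ring subunits under DMSO. It had 233.5 and 244.3 FPKM with DMSO and 41.7 and 43.4 with chidamide, a log2 fold change of -2.46 (SE 0.0596, adjusted p = 2.8e-08). PCNA, the sliding clamp, had the highest FPKM of the 52 genes. It had 376.0 and 370.6 FPKM with DMSO and 72.5 and 70.9 with chidamide, a log2 fold change of -2.36 (SE 0.0518, adjusted p = 2.2e-08). In each of these 6 genes the replicates lay close together and far from the other group. The places of MCM7 and PCNA among the 6 hold on the log2(FPKM + 1) scale only: by ratio, POLD3 (15% of its DMSO mean), MCM10 (15.7%) and CLSPN (17%) were left lower than MCM7 (17.8%) and PCNA (19.2%). The values of MCM7 and PCNA rest on the row shift, and PCNA has 3 named pseudogenes that could share reads with it.

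**Figure D2:**
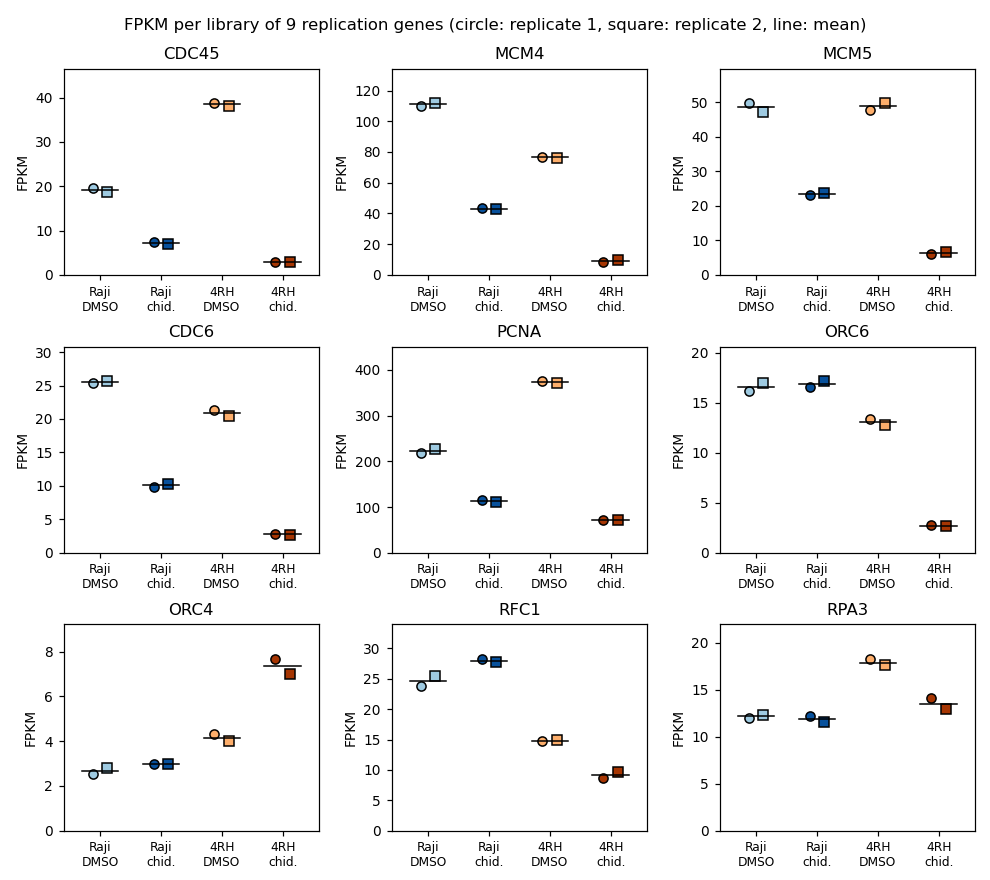
FPKM (linear axes from 0) of 9 replication genes in the 8 libraries, with circles for replicate 1, squares for replicate 2 and a line at the mean. CDC45, MCM4, MCM5, CDC6 and PCNA are lowest in the Raji-4RH chidamide libraries, ORC6 fell in Raji-4RH alone by its calls, ORC4 is highest in the Raji-4RH chidamide libraries, RFC1 is highest in the Raji chidamide libraries (28.3 and 27.7) and lowest in those of Raji-4RH chidamide (8.75 and 9.68), and RPA3 is highest under DMSO in Raji-4RH (18.3 and 17.6).

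The promoter windows of genes at both ends of this range are shown so that their letters can be set beside their change. The windows, taken from RefSeq (GRCh38.p14), run from 250 bases before to 50 bases after a transcription start and are read 5′ to 3′ on the gene's strand. Capitals mark the letters of 3 motifs searched on both strands: E2F (TTTCGCGC, TTTGGCGC, TTTCCCGC or TTTGCCGC), NF-Y (CCAAT) and the CHR element (TTTGAA). First are the 4 largest falls in Raji-4RH on the log2(FPKM + 1) scale among the genes whose window could be printed, which are CDC45 at chr22:19479670-19479969 (plus strand), CDC6 at chr17:40287629-40287928 (plus strand), MCM7 at chr7:100101348-100101647 (minus strand) and PCNA at chr20:5126573-5126872 (minus strand).
CDC45: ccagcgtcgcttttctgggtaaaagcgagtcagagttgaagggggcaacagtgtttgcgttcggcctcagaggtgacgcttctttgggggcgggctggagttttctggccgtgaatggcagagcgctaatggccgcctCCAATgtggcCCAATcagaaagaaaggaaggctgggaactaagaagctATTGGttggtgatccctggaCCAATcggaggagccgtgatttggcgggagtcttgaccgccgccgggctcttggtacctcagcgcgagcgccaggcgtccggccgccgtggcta
CDC6: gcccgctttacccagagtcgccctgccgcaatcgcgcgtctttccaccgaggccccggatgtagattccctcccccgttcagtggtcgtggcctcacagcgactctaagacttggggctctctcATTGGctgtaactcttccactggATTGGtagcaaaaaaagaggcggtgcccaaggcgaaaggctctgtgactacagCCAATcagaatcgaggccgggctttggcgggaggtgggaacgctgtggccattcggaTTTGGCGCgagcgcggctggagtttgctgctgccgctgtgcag
MCM7: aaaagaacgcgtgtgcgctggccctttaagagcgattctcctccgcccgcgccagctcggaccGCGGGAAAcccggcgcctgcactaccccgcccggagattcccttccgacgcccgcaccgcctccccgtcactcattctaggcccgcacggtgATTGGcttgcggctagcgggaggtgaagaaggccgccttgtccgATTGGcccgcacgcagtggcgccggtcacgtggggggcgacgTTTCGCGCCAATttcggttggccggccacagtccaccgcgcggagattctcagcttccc
PCNA: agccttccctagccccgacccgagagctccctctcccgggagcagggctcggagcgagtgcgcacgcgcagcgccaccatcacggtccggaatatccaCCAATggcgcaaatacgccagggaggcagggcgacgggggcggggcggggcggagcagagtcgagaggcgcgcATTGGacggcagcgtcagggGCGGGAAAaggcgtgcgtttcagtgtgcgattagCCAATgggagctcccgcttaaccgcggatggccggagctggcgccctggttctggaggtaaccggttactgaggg
In these windows CDC45 held 4 NF-Y matches and no E2F match, CDC6 held 3 NF-Y and 1 E2F match, MCM7 held 3 NF-Y and 2 E2F matches and PCNA held 3 NF-Y and 1 E2F match. CDC45 and MCM7 have 3 listed windows each and PCNA has 2, and only the first listed is shown and counted here. In MCM7 an E2F match and an NF-Y match overlap by 1 base. The search took exact letters only. The letters TTTGGCGG, which differ from the E2F letters TTTGGCGC in the last base, stand in the CDC45 and CDC6 windows and were not counted.

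The genes that rose or changed least in Raji-4RH were the ORC subunits ORC4, with 2 listed windows at chr2:148021502-148021801 (minus strand) and chr2:148020688-148020987 (minus strand), ORC2 at chr2:200963611-200963910 (minus strand) and ORC5 at chr7:104207964-104208263 (minus strand).
ORC4: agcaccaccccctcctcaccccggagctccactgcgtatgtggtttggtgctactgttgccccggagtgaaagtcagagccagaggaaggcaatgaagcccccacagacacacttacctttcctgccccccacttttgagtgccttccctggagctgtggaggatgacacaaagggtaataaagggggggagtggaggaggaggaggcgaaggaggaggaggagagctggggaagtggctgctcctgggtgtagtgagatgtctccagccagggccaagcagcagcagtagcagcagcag
ORC4 second window: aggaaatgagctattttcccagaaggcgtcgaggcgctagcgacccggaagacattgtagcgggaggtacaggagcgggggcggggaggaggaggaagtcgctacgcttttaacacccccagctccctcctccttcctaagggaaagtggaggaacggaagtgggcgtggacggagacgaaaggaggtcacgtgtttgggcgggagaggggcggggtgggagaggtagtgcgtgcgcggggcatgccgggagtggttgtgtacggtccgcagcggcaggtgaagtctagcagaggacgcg
ORC2: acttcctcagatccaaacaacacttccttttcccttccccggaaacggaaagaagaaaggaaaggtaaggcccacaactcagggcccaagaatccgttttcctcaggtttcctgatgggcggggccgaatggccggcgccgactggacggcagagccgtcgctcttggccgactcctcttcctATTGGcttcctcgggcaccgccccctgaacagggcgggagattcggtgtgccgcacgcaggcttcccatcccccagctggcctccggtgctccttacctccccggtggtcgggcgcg
ORC5: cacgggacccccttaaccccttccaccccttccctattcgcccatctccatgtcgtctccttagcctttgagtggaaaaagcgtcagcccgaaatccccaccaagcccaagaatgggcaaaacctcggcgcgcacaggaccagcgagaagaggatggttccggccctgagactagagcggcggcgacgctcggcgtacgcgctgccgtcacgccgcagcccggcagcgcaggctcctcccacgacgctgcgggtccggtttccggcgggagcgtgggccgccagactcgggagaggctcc
These windows held no match apart from 1 NF-Y match in ORC2.

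RefSeq windows were matched for 45 of the 52 genes, and 9 of these have several windows. GINS4, MCM4, MCM5, POLD3, RECQL4, RPA2 and RPA3 had no entry. E2F letters were found in 23 of the 45 genes (51.1%), against 3.99% of the 27305 genes of the promoter table. NF-Y letters were found in 26 of the 45 (57.8%), against 39.7% of all genes, and both motifs in 14 (31.1% against 1.84%). CHR letters were found in 1 of the 45, DBF4 (2.22%, against 18.2% of all genes). All genes here are those of the promoter table, which was not limited to the 10710 genes tested or to expressed genes. The 23 genes with E2F letters had a median of -1.74 on the log2 scale in Raji-4RH and ranged from -2.54 to -0.61, and the 22 without them had a median of -1.25 and ranged from -3.33 to 0.69. In Raji the medians were -0.73 and -0.50. For NF-Y letters the medians with and without them were -1.73 and -1.64 in Raji-4RH and -0.55 and -0.64 in Raji. A match is a description of these letters and not a bound site. A gene without a match can hold variants of a motif that were not searched.

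Of the 6 origin recognition genes, 5 fell in Raji-4RH and 1 rose, and the median was -0.49 on the log2 scale, the smallest of the 13 role groups. ORC1, the subunit whose level is known to vary over the cell cycle, had 21.8 and 22.7 FPKM with DMSO and 3.69 and 4.30 with chidamide, a log2 fold change of -2.22 (SE 0.0669, adjusted p = 5.7e-08). ORC6, the smallest subunit, had 13.4 and 12.8 FPKM with DMSO and 2.75 and 2.66 with chidamide, a log2 fold change of -1.93 (SE 0.0549, adjusted p = 4.7e-08). These were the 2 subunits of the complex with the largest falls. ORC4, a core subunit, had 4.30 and 4.02 FPKM with DMSO and 7.68 and 7.0 with chidamide, a log2 fold change of 0.69 (SE 0.0672, adjusted p = 2.3e-05). It had the lowest FPKM of the subunits under DMSO, and both chidamide libraries lay above both DMSO libraries. Of the exon bases of ORC4, 6.6% overlap another gene, mainly ACVR2A, and the part of this overlap in the rise was not tested. ORC3 fell with a log2 fold change of -0.76. ORC2 and ORC5 changed little, at -0.20 (adjusted p = 0.0161) for ORC2 and -0.23 (adjusted p = 0.00755) for ORC5, and the call of ORC2 was lost without Raji-4RH DMSO replicate 1 (-0.19, adjusted p = 0.0829) and without Raji-4RH chidamide replicate 2 (-0.17, adjusted p = 0.0628).

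The 3 licensing genes fell, with a median of -1.77. CDT1, which brings the ring to the origin, went from 39.5 and 42.5 FPKM to 11.1 and 11.5, and GMNN, which encodes geminin, the inhibitor of CDT1, went from 41.2 and 40.2 FPKM to 20.5 and 17.3. Their log2 fold changes were -1.77 and -1.07, so the activator was left at 27.6% and its inhibitor at 46.5% of the DMSO mean.

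All 6 subunits of the MCM2-7 ring fell, with a median of -2.33, the lowest of the 13 role groups. The smallest fall was in MCM3, which had 103.2 and 104.7 FPKM with DMSO and 31.6 and 32.5 with chidamide, a log2 fold change of -1.67 (SE 0.0478, adjusted p = 4.7e-08). MCM2 and MCM6 fell with log2 fold changes of -1.96 and -2.20. MCM10, which helps to activate the helicase, went from 16.5 and 16.2 FPKM to 2.78 and 2.36, a log2 fold change of -2.29, and MCM8, a helicase subunit known from homologous recombination, fell with -1.75. The reads of MCM2 overlap another gene over 23.6% of its exon bases, and the libraries were counted without a stated strand setting.

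The 4 GINS genes, whose products complete the active helicase with CDC45, fell with log2 fold changes of -1.92 (GINS1), -1.74 (GINS2), -1.28 (GINS3) and -1.22 (GINS4). Among the 4 origin firing genes the fall was -1.82 in RECQL4, -1.45 in TOPBP1, -1.08 in DBF4 and -0.61 in CDC7. DBF4, the activating subunit of the kinase, went from 16.6 and 14.7 FPKM to 6.46 and 7.29, and CDC7, its catalytic subunit, from 20.8 and 18.6 FPKM to 11.9 and 13.3.

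Primase and polymerase alpha fell unevenly. POLA2, the accessory subunit of polymerase alpha, went from 12.3 and 11.8 FPKM to 2.18 and 2.90, a log2 fold change of -1.89, and the catalytic POLA1 had -1.35. The primase subunits fell least of the 4, with -0.83 for the catalytic PRIM1 and -0.48 for PRIM2. Of polymerases delta and epsilon, POLD3 was left at 15.0% of its DMSO mean, with 9.53 and 8.87 FPKM against 1.13 and 1.63 and a log2 fold change of -2.11. POLE and POLE2 both had -1.72, POLD1, the catalytic subunit of polymerase delta, -1.64, and POLD2 -0.62.

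Besides PCNA, the 5 subunits of its loader RFC fell with log2 fold changes from -1.94 in RFC3 to -0.63 in RFC1, the large subunit. RFC3 had 31.3 and 29.6 FPKM with DMSO and 6.91 and 7.44 with chidamide. FEN1, the flap nuclease, had -2.03 and LIG1, the ligase, -1.68. The 3 genes of RPA, the protein that coats single-stranded DNA, fell less, with -0.93 for RPA1, -1.01 for RPA2 and -0.38 for RPA3. Among the genes of fork protection and checkpoint signalling, CLSPN (claspin) went from 21.3 and 19.1 FPKM to 3.46 and 3.40, a log2 fold change of -2.26, while the partners TIMELESS and TIPIN had -0.73 and -0.87 and WDHD1 had -1.73. The 2 subunits of the chromatin assembly factor, which places histones on new DNA, fell with -2.08 (CHAF1A) and -1.64 (CHAF1B). No role group other than origin recognition had a member that rose.

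In Raji, the parental line, these genes also moved mostly down with chidamide, by smaller amounts. Of the 52, 44 fell, 1 rose and 7 did not pass the test, where 28.5% of all genes tested fell and 31.5% rose (32.0% and 24.7% with quantile normalization). Under quantile normalization, 40 of the 52 fell and 1 rose. The median log2 fold change was -0.55, against 0.02 over all genes, and 8 of the 52 reached -1 or lower, against 0.859% of all genes. The libraries of the 2 treatments did not overlap in 49 of the 52 genes and in 82.8% of all genes. The exceptions were ORC6, PRIM2 and RPA3.

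On the log2(FPKM + 1) scale, the largest fall in Raji was in MCM4, which had 109.8 and 111.9 FPKM with DMSO and 43.3 and 42.6 with chidamide, a log2 fold change of -1.35 (SE 0.0556, adjusted p = 6.0e-07). CDC45 had 19.7 and 18.8 FPKM with DMSO and 7.45 and 7.07 with chidamide, a log2 fold change of -1.29 (SE 0.0541, adjusted p = 6.4e-07). CDC6 had 25.4 and 25.7 FPKM with DMSO and 9.82 and 10.3 with chidamide, a log2 fold change of -1.26 (SE 0.055, adjusted p = 7.4e-07). These 3 genes, all of licensing or the active helicase, were left at 38.7%, 37.7% and 39.4% of their DMSO means, so by ratio CDC45 fell further than MCM4. MCM7 had 176.2 and 162.1 FPKM with DMSO and 72.5 and 74.4 with chidamide, a log2 fold change of -1.19 (SE 0.0596, adjusted p = 1.5e-06). ORC1 had 18.2 and 17.6 FPKM with DMSO and 8.10 and 8.03 with chidamide, a log2 fold change of -1.06 (SE 0.0669, adjusted p = 5.1e-06). LIG1 had 27.1 and 25.7 FPKM with DMSO and 12 and 12.2 with chidamide, a log2 fold change of -1.06 (SE 0.093, adjusted p = 3.0e-05). In all 6 the DMSO libraries were high and the chidamide libraries low, with no overlap. By ratio, POLD3 (44.3% of its DMSO mean) was left lower than ORC1 (45.1%) and LIG1 (45.9%). The place of LIG1 among the 6 thus holds on the log2(FPKM + 1) scale only.

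The 1 gene that rose in Raji was RFC1, the large subunit of the clamp loader. It had 23.9 and 25.5 FPKM with DMSO and 28.3 and 27.7 with chidamide, a log2 fold change of 0.18 (SE 0.0608, adjusted p = 0.0341). This call was lost when samples were centred on their median (0.14, adjusted p = 0.0663) and without any 1 of 5 libraries, namely Raji DMSO replicate 1, either Raji chidamide library or either Raji-4RH DMSO library (0.13 to 0.19, adjusted p = 0.0606 to 0.172). The falls of ORC5, RECQL4, POLD2 and RFC2 in Raji were also lost without 1 library, with log2 fold changes left at -0.12 to -0.17 for ORC5 and -0.21 to -0.34 for RECQL4. For POLD2 they were -0.10 to -0.19 and for RFC2 -0.19 to -0.23.

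The 7 genes that did not pass the test in Raji were ORC2 (log2 fold change -0.14, adjusted p = 0.0800), ORC4 (0.12, adjusted p = 0.166), ORC6 (0.02, adjusted p = 0.748), GMNN (-0.17, adjusted p = 0.101), PRIM1 (0.16, adjusted p = 0.140), PRIM2 (0.02, adjusted p = 0.815) and RPA3 (-0.03, adjusted p = 0.694). They include 3 of the 6 ORC subunits and both primase subunits. ORC6 stood at 16.2 and 17 FPKM with DMSO and at 16.6 and 17.2 with chidamide. ORC2 passed without Raji DMSO replicate 1 (-0.20, adjusted p = 0.0483), and GMNN passed without either Raji-4RH chidamide library (-0.17 both times).

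The difference between the chidamide effects was tested in the same fit, as the change in Raji-4RH minus that in Raji. It was below 0 and passed the test in 47 of the 52 genes, above 0 and passed in 1, ORC4, and did not pass in 4. Over all genes tested, 21.7% were lower and 27.2% higher in this comparison. The median difference was -0.99 for the 52 genes and 0.04 for all genes. The changes in the 2 lines had a Pearson r of 0.789 over the 52 genes, and 0.688 over all 10710, given as a description: the genes share their libraries, depth and fit.

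**Figure D3:**
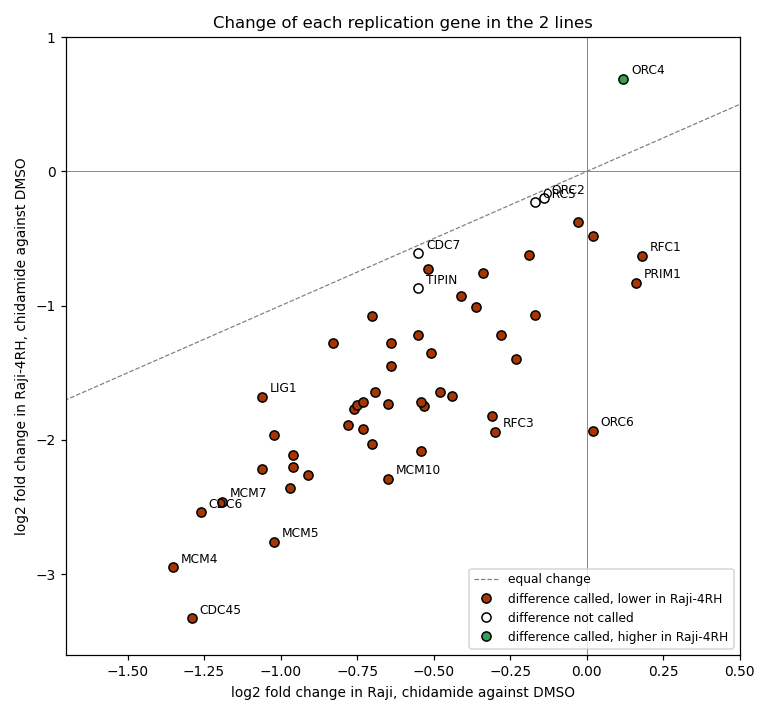
Log2 fold change with chidamide in Raji (x axis) and Raji-4RH (y axis) for the 52 replication genes, with a dashed line of equal change. The axes have different ranges; 51 points lie below the dashed line, ORC4 lies above it, and open points (ORC2, ORC5, CDC7 and TIPIN) did not pass the test of the difference.

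The largest difference was in CDC45, with -2.04 (SE 0.0765), from a fall to 7.61% of DMSO in Raji-4RH and to 37.7% in Raji. ORC6 followed with -1.95 (SE 0.0776), from 20.7% of DMSO in Raji-4RH against 102% in Raji. MCM5, at 13% against 48.3%, differed by -1.75. These 3 genes did not share a pattern in Raji, where ORC6 did not pass the test and CDC45 was among the largest falls. MCM10, at 15.7% against 60.3% of DMSO, differed by -1.64. RFC3, at 23.6% against 80.0%, also differed by -1.64. MCM4, at 11.8% against 38.7%, differed by -1.60. RFC1 was the gene called lower in Raji-4RH and higher in Raji, with a difference of -0.81 (adjusted p = 0.00017). ORC4 differed by 0.57 (SE 0.095, adjusted p = 0.00155).

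The 4 genes whose difference did not pass were ORC2 (-0.06, adjusted p = 0.591), ORC5 (-0.06, adjusted p = 0.582), the kinase CDC7 (-0.06, adjusted p = 0.630) and TIPIN (-0.32, adjusted p = 0.0524). TIPIN passed without Raji DMSO replicate 2 (-0.42, adjusted p = 0.0278) and without Raji-4RH chidamide replicate 1 (-0.36, adjusted p = 0.0448). The calls of DBF4, GINS3 and TIMELESS were lost without 1 library, with differences of -0.30 to -0.40, -0.39 and -0.17 to -0.25. For DBF4 these were either Raji chidamide library or 1 of Raji DMSO replicate 1, Raji-4RH DMSO replicate 1 and Raji-4RH chidamide replicate 1. For GINS3 it was Raji chidamide replicate 2, and for TIMELESS any 1 library other than those of Raji-4RH chidamide.

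Under DMSO the 2 lines differed in both directions. Compared with Raji, 27 of the 52 genes were higher in Raji-4RH, 12 lower and 13 not called, where 41.2% of all genes tested were higher and 32.4% lower. The share of genes called higher, 27 of 52, thus lies not far above that of all genes. The median log2 fold change was 0.19 for the 52 and 0.06 for all genes. Of the 20 genes whose values rest on the row shift, 12 were higher and 1 lower. Of the other 32, 15 were higher and 11 lower. The libraries of the 2 lines did not overlap in 44 of the 52, and in 88.5% of all genes.

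PRIM1, the catalytic subunit of primase, was the most raised. It had 6.69 and 6.84 FPKM in Raji and 17.9 and 16.4 in Raji-4RH, a log2 fold change of 1.22 (SE 0.086, adjusted p = 3.2e-06), and 21.6% of its exon bases overlap another gene. GINS4 had 3.42 and 3.41 FPKM in Raji and 8.66 and 8.50 in Raji-4RH, a log2 fold change of 1.12 (SE 0.0645, adjusted p = 9.6e-07). PRIM2 had 2.99 and 3.17 FPKM in Raji and 7.99 and 7.16 in Raji-4RH, a log2 fold change of 1.07 (SE 0.0646, adjusted p = 1.3e-06). Both primase subunits and a GINS subunit were thus each over 2-fold higher in Raji-4RH by their means. RFC3 had 13.8 and 14.9 FPKM in Raji and 31.3 and 29.6 in Raji-4RH, a log2 fold change of 1.03 (SE 0.0631, adjusted p = 1.3e-06). CDC45 had 19.7 and 18.8 FPKM in Raji and 38.8 and 38.2 in Raji-4RH, a log2 fold change of 0.97 (SE 0.0541, adjusted p = 8.0e-07). RFC2 had 13.7 FPKM in both Raji libraries and 28.1 and 26.0 in Raji-4RH, a log2 fold change of 0.93 (SE 0.0626, adjusted p = 2.5e-06). PCNA was at 167% of its Raji level. The values of PRIM1, GINS4, PRIM2, RFC3 and PCNA rest on the row shift.

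The lowest in Raji-4RH relative to Raji were ORC2, RFC1 and RPA2, each with a log2 fold change of -0.70. ORC2 had 7.98 and 8.75 FPKM in Raji and 4.85 and 4.70 in Raji-4RH, RFC1 had 23.9 and 25.5 against 14.7 and 14.9, and RPA2 had 54.6 and 57.0 against 32.9 and 34.8. MCM4 and POLD1 were also lower, at 69.0% and 68.3% of Raji. CDC6, GINS3, LIG1, ORC6, POLA2, RFC5 and TIMELESS complete the 12 genes that were lower.

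**Figure D4:**
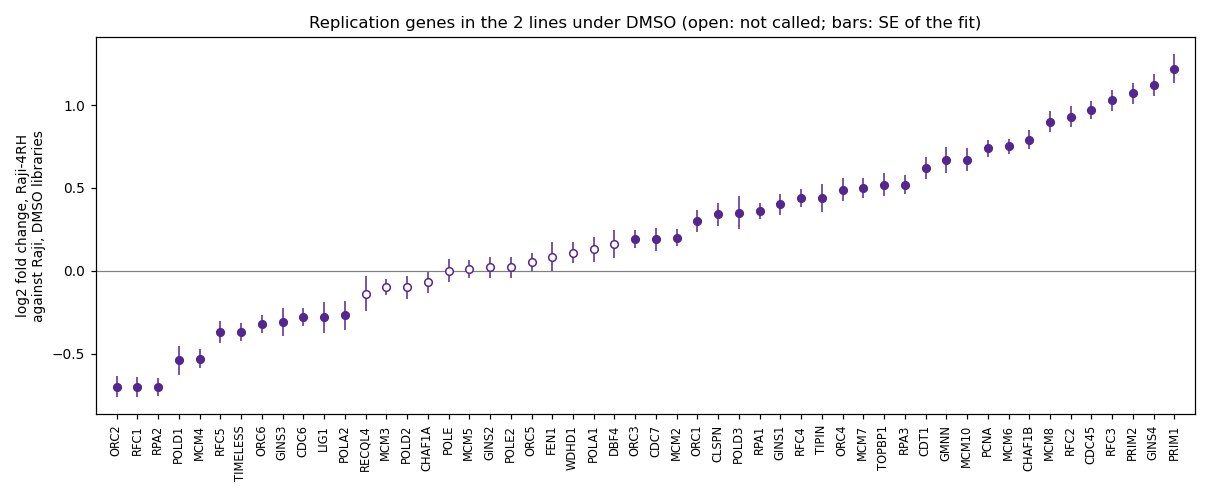
Log2 fold change of the 52 replication genes in Raji-4RH DMSO against Raji DMSO libraries on the log2(FPKM + 1) scale, sorted by value, with bars for the standard errors of the fit and open points for genes not called. The values run from -0.70 in ORC2 to 1.22 in PRIM1.

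The genes not called between the lines under DMSO were ORC5, MCM3, MCM5, GINS2, DBF4, RECQL4, POLA1, POLD2, POLE, POLE2, FEN1, WDHD1 and CHAF1A, with log2 fold changes from -0.14 to 0.16. MCM5, for example, stood at 49.8 and 47.2 FPKM in Raji and 47.9 and 49.7 in Raji-4RH, while under chidamide it stood at 23.2 and 23.7 in Raji and 6.15 and 6.53 in Raji-4RH. The calls of 7 genes were lost without 1 library: ORC3 (0.18), MCM2 (0.17), GINS3 (-0.28), CDC7 (0.12 to 0.20), POLA2 (-0.24 to -0.30), POLD3 (0.31) and LIG1 (-0.24 to -0.32). MCM2 lost its call without Raji-4RH DMSO replicate 2 and GINS3 without Raji DMSO replicate 2, ORC3 and POLD3 without Raji DMSO replicate 1 or Raji-4RH DMSO replicate 1, and POLA2 and LIG1 without any 1 of the 4 DMSO libraries. CDC7 lost it without either Raji DMSO library, either Raji chidamide library or Raji-4RH DMSO replicate 1.

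The subunits of a complex are needed together, and their FPKM are set side by side here within a library. The length used covers the exon bases of all transcripts of a gene, so the order of subunits depends on it. In Raji DMSO replicate 1, for example, MCM5 (7338 bases) had 7221 reads and MCM6 (4118 bases) had 5290. The ranks below are therefore ranks of FPKM and not of RNA molecules. In the MCM2-7 ring, the highest subunit stood 3.43 to 3.57 times above the lowest in the Raji libraries, with MCM7 highest under DMSO, MCM3 highest under chidamide and MCM5 lowest in all 4. In Raji-4RH, MCM7 was highest and MCM5 lowest in all 4 libraries, and the ratio was 4.88 and 4.92 with DMSO and 6.78 and 6.65 with chidamide. The summed level of the 6 subunits went from 664.2 and 679.1 to 134.1 and 138.5 FPKM in Raji-4RH and from 595.7 and 577.5 to 293.4 and 295.3 in Raji. By FPKM, the subunits were thus furthest apart in the group where their sum was lowest.

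In ORC, the order of the subunits changed with treatment. ORC1 was the highest subunit under DMSO in both lines, ORC6 was the highest in Raji with chidamide, and ORC5 in Raji-4RH with chidamide, at 10.4 and 9.55 FPKM. ORC4 was the lowest in every library except those of Raji-4RH chidamide, where ORC6 was the lowest at 2.75 and 2.66 FPKM. In the clamp loader, RFC1 was the highest subunit in all 4 Raji libraries, while RFC3 or RFC4 was the highest in Raji-4RH. RFC5 was the lowest subunit in all libraries other than those of Raji DMSO, where RFC2 was lowest. In GINS, GINS2 was highest throughout, and the lowest was GINS4 in Raji and GINS3 in Raji-4RH. In RPA, RPA3 was lowest throughout, and the highest was RPA2 in Raji and RPA1 in Raji-4RH.

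**Figure D5:**
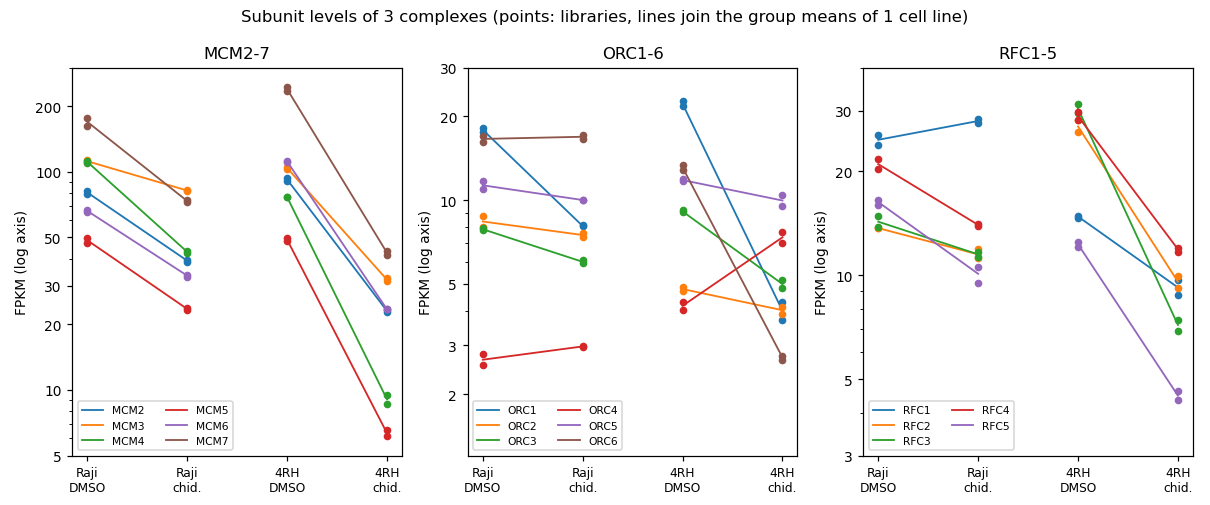
FPKM (log axes) of the subunits of MCM2-7, ORC1-6 and RFC1-5 in the 4 groups, with a point for each library and lines that join the 2 group means of 1 cell line. The MCM2-7 lines fall together and more steeply in Raji-4RH, where MCM5 reaches 6.15 and 6.53 FPKM, while ORC4 rises and ORC6 falls in Raji-4RH and RFC1 is highest of its complex in Raji.

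Other genes of the pathway were read from lists that hold none of the 52. Of 30 further replication genes tested, 26 fell and 2 rose in Raji-4RH (median -0.95 on the log2 scale), and 24 fell and 2 rose in Raji, with a median of -0.38. The largest falls in Raji-4RH were in DSCC1, a subunit of an alternative clamp loader (-1.94), and the nuclease DNA2 (-1.88). POLD4, the small subunit of polymerase delta, rose in both lines, with means of 6.45 FPKM with DMSO and 19.9 with chidamide in Raji-4RH (log2 fold change 1.48) and of 21.4 and 42.3 in Raji (0.95). Its partner subunits POLD1, POLD2 and POLD3 fell in both lines. The fall of POLD2 in Raji was small (-0.19), and its call depended on single libraries, as given above. ETAA1, an activator of the checkpoint kinase ATR, rose in Raji-4RH (0.66), and RNASEH2B, a subunit of RNase H2, rose in Raji (0.30).

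Of 10 genes of deoxynucleotide synthesis, which supplies the building blocks, 8 fell and 1 rose in each line, with medians of -1.57 in Raji-4RH and -0.90 in Raji. TYMS, thymidylate synthase, fell most in both lines, with log2 fold changes of -2.61 and -1.08. The gene that rose in both lines was SAMHD1, which breaks deoxynucleotides down (0.33 and 0.80). Of 32 mitosis genes, which act after replication, all 32 fell in Raji-4RH with a median of -1.38. In Raji 29 fell and 1, NCAPD2, rose, with a median of -0.50. The median fall of the 52 replication genes in Raji-4RH was thus deeper by value than that of the mitosis list, and this difference was not tested.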

How the data were processed

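RNA was extracted from the 8 samples with TRIzol, and libraries were made with the NEBNext Ultra RNA kit, which as named does not mark strand, and sequenced on the Illumina HiSeq X platform. The submitters' processing notes name HISAT2 2.0.5, SAMtools 1.7, HTSeq 0.9.1, DESeq2 1.22.2 and the build hg38/GRCh38, without their roles, and the annotation is not given in the sources used here. The FPKM values were computed by the authors and deposited as 1 table with gene lengths, and every library's values gave whole reads (100% within 0.01 of a whole number).

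Of 63967 label rows, the last 662 hold repeats of the first 662 value rows, and from label row 6235 to row 18171 the values lie 1 to 14 rows below their labels. Following the rule given with the gene list, 18143 genes were placed (90.7 to 93.2% of reads), and FPKM was recomputed from the reads of the value row and the length of the label. Later rows were not used here. At the rows of the rule, 135 of 154 broadly expressed genes had at least 5 FPKM, against 64 at the label row, and 399 of 403 restricted genes had under 0.5 FPKM, against 192. GENCODE release 29 gave the same gene length for 48 of the 52 replication genes. By its exons, 7 of the 52 overlap another gene over more than 10% of their bases (GINS3, GINS4, MCM2, POLA2, PRIM1, RFC5 and TIPIN), and 7 have named pseudogenes (DBF4, FEN1, PCNA, POLD2, RFC3, RFC5 and RPA2), so their reads are less certain. The lowest count of any of the 52 in any library was 67 reads, and counting error alone limits the precision of such low values.

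Log2(FPKM + 1) was fitted, for genes that reached 1 FPKM in 2 libraries or more, with limma 3.58.1 (R 4.3.3; all 8 libraries, 4 group means, trended eBayes), and p-values were adjusted by Benjamini-Hochberg over the 10710 genes tested, with a threshold of 0.05. For genes of low level, this scale makes fold changes smaller than they are. There were 4 comparisons: the treatment effect in Raji-4RH, the same in Raji, the former minus the latter, and Raji-4RH against Raji under DMSO. They share libraries. The code was tested on simulated data. Alternatives were quantile normalization, median centring, a pseudocount of 0.1, other filters, limma voom on the recovered reads, a fit of only the libraries compared, a replicate block, leaving out each library, the label rows as they stand, and only genes with no shift. The genes named with full values were the 6 largest changes on the log2(FPKM + 1) scale in each comparison, those called against the others and those not called. The 52 genes, the other lists, the motifs and these rules were chosen with earlier results of these data known.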

Additional observations from a re-analysis of the deposited data

Results flagged for a closer look

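The chidamide effect differed between the lines by the test of the difference (limma, adjusted p under 0.05) in 47 of the 52 genes with the lower value in Raji-4RH and in 1, ORC4, with the higher. The largest such differences in log2 fold change, Raji-4RH minus Raji, were -2.04 for CDC45, -1.95 for ORC6, -1.75 for MCM5, -1.64 for MCM10, -1.64 for RFC3 and -1.60 for MCM4. RFC1, called lower in Raji-4RH and higher in Raji, differed by -0.81. The share of all genes tested that differed was 21.7% lower and 27.2% higher.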

How the results depend on the processing

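In Raji-4RH the median log2 fold change of the 52 genes was -1.68 and became -1.75 with median-centred samples and -1.84 with a pseudocount of 0.1 or with limma voom. In Raji it was -0.55 and became -0.62 with a pseudocount of 0.1 or with voom, and the count of genes that rose there went from 1 to 0 with median-centred samples. The median of the difference, -0.99, became -1.10 with quantile normalization, -1.09 with a pseudocount of 0.1 and -1.12 with voom. Quantile normalization moved the median of all genes in Raji-4RH from 0.09 to -0.02, and it left near-equal shares of all genes lower and higher for the difference (23.7% and 23.5%) and under DMSO (35.4% and 35.0%). Without 1 library, the counts were 50 to 51 lower and 1 higher in Raji-4RH (median -1.75 to -1.65), 40 to 45 lower and 0 to 1 higher in Raji (median -0.61 to -0.55), 44 to 47 lower and 1 higher for the difference (median -1.04 to -0.97), and 9 to 13 lower and 24 to 27 higher between the lines under DMSO (median 0.15 to 0.22). Where 1 library was left in a group, it was assumed to vary like the others.

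With only the 32 genes whose label needs no shift, 31 fell in Raji-4RH and 26 in Raji, and the difference was lower in 29 (median -1.13). Under DMSO, 15 of these 32 were higher in Raji-4RH and 11 lower, with a median of 0.15. Of the 20 genes read below their label, 12 were higher in the main fit and 1 lower, with a median of 0.4. The balance under DMSO thus differed between the 2 sets, and why was not tested. Read from the row of the label, only 43 of the 52 passed the filter. Then 4 rose in Raji-4RH (median -1.28) and 3 in Raji, and the difference was lower in 31 and higher in 3 (median -0.81). In that reading the direction turned in Raji-4RH for PCNA (1.36), ORC3 (0.49), MCM7 (0.10) and CDT1 (0.32), and in Raji for PCNA (0.02), ORC3 (0.45), GINS4 (0.07), MCM7 (0.87) and POLE (0.17). It turned for the difference in PCNA (1.34), ORC3 (0.04), TOPBP1 (0.20), RFC4 (0.22) and CDT1 (0.44), and between the lines under DMSO in RPA1 (-0.19), MCM7 (-5.49), CDT1 (-0.60) and POLE (-0.32). These values belong to other genes by the shift.

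Deviations of same-numbered libraries had correlations from -0.279 (Raji DMSO with Raji-4RH chidamide) to 0.166 (Raji-4RH DMSO with Raji-4RH chidamide). Whether libraries of different groups belong together, under these or crossed numbers, was not tested. With a replicate block, 51 fell in Raji-4RH, 42 fell in Raji, the difference was lower in 47, and 26 were higher under DMSO. Crossing the numbers of Raji-4RH, chosen after seeing the data, gave 27 higher under DMSO. The crossed numbers were used for that comparison only. A fit of only the libraries compared was not run for the difference, which needs all 8.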
